A study of Mus musculus with 11 samples.

Results

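RNA from the facial processes of mouse embryos lacking *Rspo2* was compared with that of wild-type embryos at embryonic day 10.5 (E10.5), by sequencing. The comparison takes the 3 libraries labelled as homozygous *Rspo2* mutants (Rspo2KO) and the 2 labelled wild type (wt), which are 5 of the 11 libraries of the series, and it is described across autosomal genes. The tissue was mandibular and maxillary branchial arch with nasal processes, dissected together, and the strain is given as Mixed for every group. The sources describe an *Rspo2* null allele and a version of it without the *LacZ* and neomycin-resistance cassette, and do not say which of them these embryos carried. Of 38561 genes counted, 33920 are autosomal, and 15371 of these, 13578 of them protein-coding, had enough reads to be tested. The other 6 libraries, 3 labelled as homozygous *Wnt9b* mutants (Wnt9bKO) and 3 as double mutants of *Rspo2* and *Wnt9b* (DKO), carry the same Mixed strain label and age and are used only in the last comparison.

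R-spondins are secreted proteins that raise the response of a cell to WNT ligands. They bind receptors of the LGR4, LGR5 and LGR6 family and the membrane ubiquitin ligases ZNRF3 and RNF43, which otherwise remove Frizzled receptors and their LRP5 and LRP6 co-receptors from the cell surface. With the receptors kept in place, WNT stabilises β-catenin, which acts with TCF and LEF factors on target genes. In the face, *Rspo2* is made by mesenchyme, and mice without it have defects of the lower jaw and palate, so the comparison asks which genes of these tissues depend on it.

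Of the WNT target genes described below as past a threshold, *Notum* and *Fgf8* had no upstream sequence in the source used. Stretches of DNA just before the start of *Msx1* and *Dkk1*, the others, are shown to look for the core sequence that TCF and LEF factors recognise. Each is the 250 bases upstream of the RefSeq start in build GRCm38.p6, read 5′ to 3′ on the gene's strand, and capitals mark CTTTGA or its reverse complement TCAAAG. The *Msx1* stretch is chr5:37824586-37824835 and the *Dkk1* stretch is chr19:30549497-30549746, both on the minus strand.
Msx1: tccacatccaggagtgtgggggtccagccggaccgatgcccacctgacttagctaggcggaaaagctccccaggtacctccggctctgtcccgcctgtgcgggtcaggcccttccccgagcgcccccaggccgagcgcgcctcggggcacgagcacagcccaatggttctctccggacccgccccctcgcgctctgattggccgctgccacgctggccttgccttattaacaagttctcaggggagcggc
Dkk1: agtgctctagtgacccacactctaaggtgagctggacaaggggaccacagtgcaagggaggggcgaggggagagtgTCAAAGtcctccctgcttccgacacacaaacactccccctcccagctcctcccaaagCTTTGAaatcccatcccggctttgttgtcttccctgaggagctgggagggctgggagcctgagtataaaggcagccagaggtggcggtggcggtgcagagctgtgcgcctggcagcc
The *Dkk1* stretch holds 2 matches, which begin 174 and 117 bases before its RefSeq start, and the *Msx1* stretch holds 0. The GENCODE annotation, used for gene positions elsewhere, starts *Dkk1* further upstream, at 30549665. By that start most of the *Dkk1* stretch, with the match at 117 bases, lies inside the gene. At least 1 match was found in 4544 of 32851 such windows (13.8%), in those of 1412 of 11187 tested autosomal genes with a window (12.6%), and in those of 5 of the 15 tested WNT target genes with one (33.3%). A match describes these letters only.

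*Rspo2* itself was the first check of the labels. This gene, at chromosome 15, 43020794 to 43170826, was at 14.7 and 15.7 CPM (counts scaled by library size) in wt 1 and wt 2. In Rspo2KO 1, 2 and 3 it was at 6.66, 4.71 and 4.69 CPM. The groups did not overlap, and *Rspo2* fell 2.86-fold, a log2 fold change of −1.52 with a standard error (SE) of 0.18 and an adjusted p of 0.00752 in edgeR's quasi-likelihood test. Which exons the remaining reads came from cannot be read from gene counts. Without Rspo2KO 3 the log2 fold change was −1.43 and the adjusted p was 0.0882. With the other 6 libraries also in the fit, the spread of the 2 that go against their labels enters, and the adjusted p was 0.358.

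**Figure D1:**
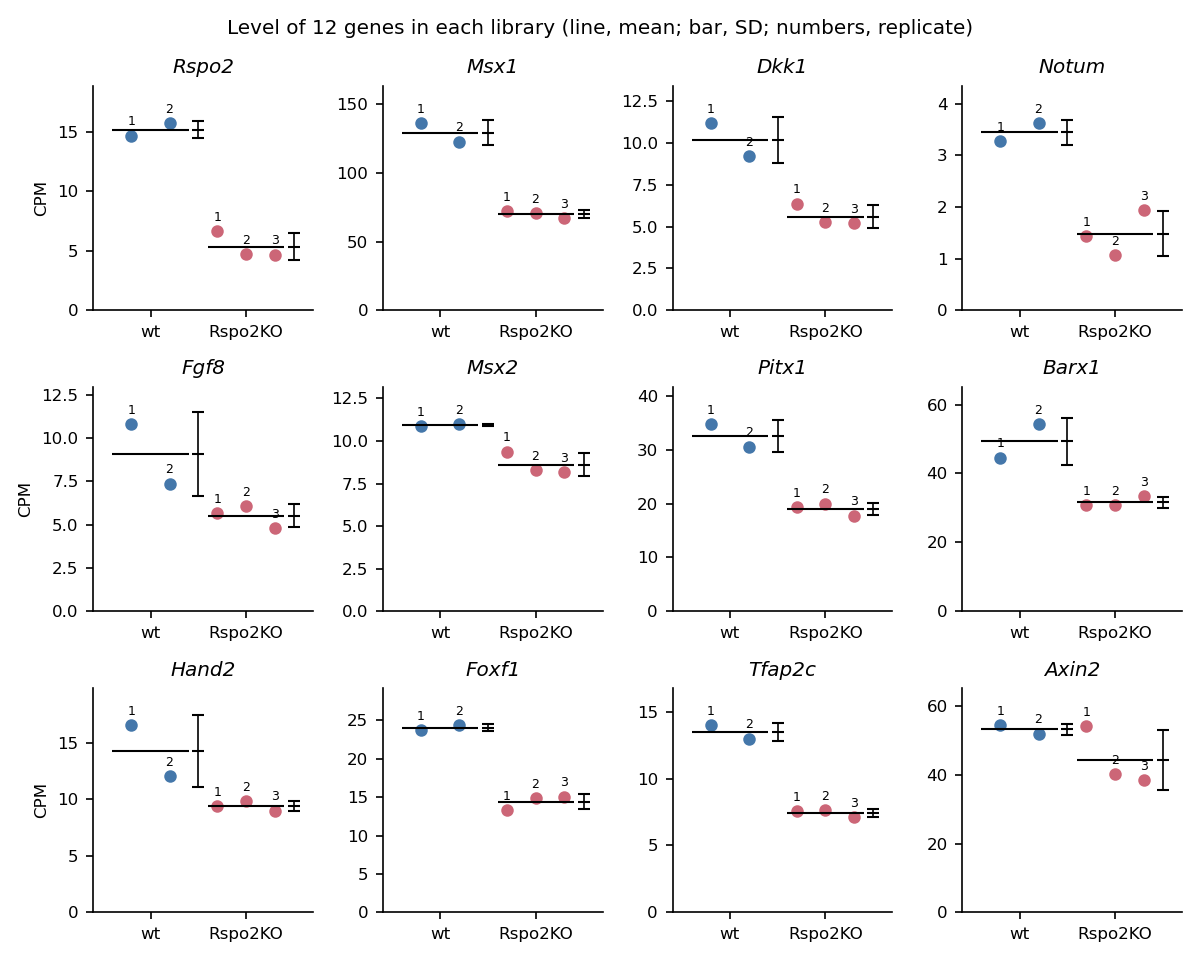
CPM of 12 genes in each wt (blue) and Rspo2KO (red) library, with replicate numbers over the points, the mean as a line and the SD as a bar beside it. The wt and Rspo2KO points do not overlap for 11 of the genes, while for *Axin2* Rspo2KO 1 lies at the level of wt. Among all autosomal genes 16% were lower in Rspo2KO without overlap.

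Total counts were 11136166 and 16764595 in wt and 13220768 to 17455921 in Rspo2KO, and 3 counts are worth 0.178 to 0.265 CPM. The embryos differed by sex as well as by genotype. *Xist*, the RNA that silences the second X chromosome of females, reached 673 and 890 CPM in wt and at most 1.91 CPM in Rspo2KO, and the Y-linked *Ddx3y* was at 58.2 to 74.9 CPM in Rspo2KO and at most 1.06 CPM in wt. Genotype and sex cannot be told apart in any autosomal difference between these groups. Rspo2KO 1 had the lowest correlation of log2 CPM with the other libraries (r = 0.976 to 0.988), and the other pairs were at 0.984 to 0.992. All 12 markers of facial mesenchyme had enough reads to be tested, as did all 12 of surface epithelium.

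The call rule asked for an adjusted p below 0.05 and over 1.5-fold difference, and 4 of the 15371 autosomal genes were called (0.026%), 1 higher (0.00651%) and 3 lower (0.0195%) in Rspo2KO. The 3 that fell were *Rspo2*, *Msx1* and *Rpl30*, and the 1 that rose was the pseudogene *Eif3s6-ps2*. The study's methods give a p below 0.05 and over 1.5-fold without saying whether that p was adjusted. With p unadjusted, 809 genes (5.26%) passed, 687 of them higher (4.47%) and 122 lower (0.794%). Genes that passed only this threshold are called higher or lower at the unadjusted threshold from here on, and 2006 autosomal genes had an unadjusted p below 0.05 whatever their fold. Without Rspo2KO 1, the count at the unadjusted threshold was 427, with 294 higher and 133 lower, and 14 genes passed the adjusted threshold.

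**Figure D2:**
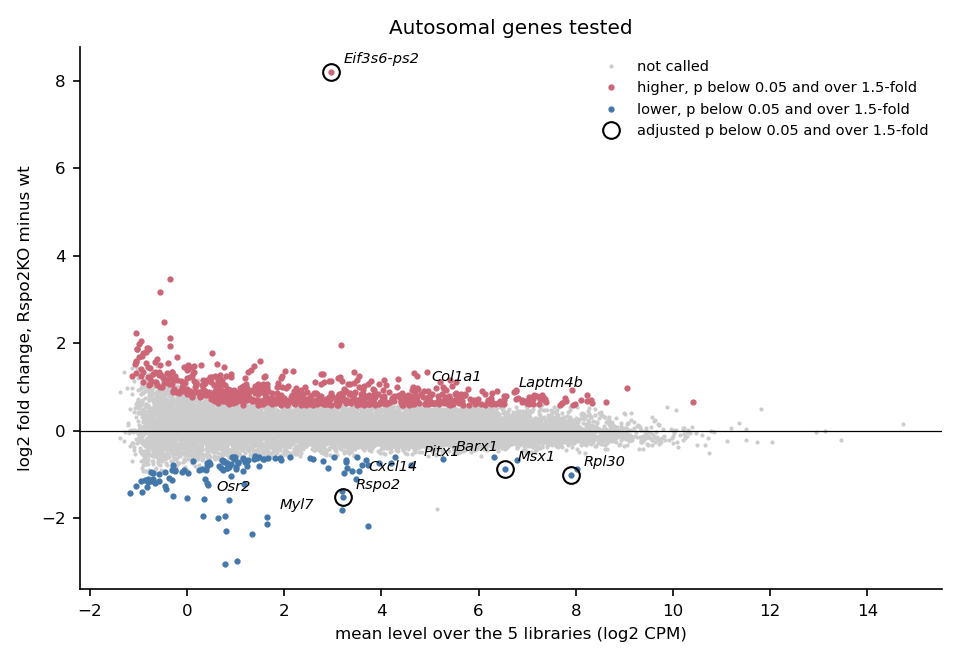
Log2 fold change of each autosomal gene (Rspo2KO minus wt, vertical axis) against its mean level over the 5 libraries (log2 CPM, horizontal axis), with genes past the unadjusted threshold in red (687 higher) and blue (122 lower). Open circles mark the 4 genes past the adjusted threshold, of which *Eif3s6-ps2* lies far above all others.

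Among genes that WNT signalling is known to raise, the clearest difference was in *Msx1*, a homeobox gene of facial mesenchyme needed for palate and tooth formation. *Msx1* was at 136 and 122.8 CPM in wt and at 72.2, 70.8 and 66.9 CPM in Rspo2KO. The groups did not overlap, and *Msx1* fell 1.85-fold (log2 fold change −0.89, SE 0.11, adjusted p = 0.00752). Without wt 1, when wt 2 alone stands for wt and is assumed to vary like the other group, the log2 fold change of *Msx1* was −0.81 and the adjusted p was 0.122. Without Rspo2KO 3 these were −0.85 and 0.134. The adjusted p was 0.338 with all 11 libraries in the fit, 0.0525 with the 9 whose *Rspo2* level follows their label, and 1.0 when tested against 1.5-fold rather than against no difference (glmTreat).

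Another 3 of the 22 WNT target genes tested were lower at the unadjusted threshold. *Dkk1*, a secreted inhibitor that binds the LRP5 and LRP6 co-receptors, was at 11.1 and 9.20 CPM in wt and at 6.35, 5.25 and 5.19 CPM in Rspo2KO (log2 fold change −0.86, SE 0.18, adjusted p = 0.215). *Notum*, a secreted enzyme that takes the lipid off WNT proteins, was at 3.27 and 3.62 CPM in wt and at 1.44, 1.07 and 1.94 CPM in Rspo2KO (log2 fold change −1.22, SE 0.27, adjusted p = 0.263). *Fgf8*, a growth factor of the oral and nasal ectoderm, was at 10.8 and 7.36 CPM in wt and at 5.67, 6.08 and 4.81 CPM in Rspo2KO (log2 fold change −0.70, SE 0.20, adjusted p = 0.268). In each of these genes every Rspo2KO library lay below both wt libraries.

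The 4 lower genes made up 18.2% of the 22 tested, beside 0.794% of all autosomal genes, and 0 of the 22 were higher at that threshold, beside 4.47% of all genes. The median log2 fold change of the list was −0.149, beside 0.00669 for all autosomal genes, and 16 of its members were below 0. Leaving out any 1 library gave 4 or 5 lower members and medians of −0.20 to −0.10. *Axin2*, the inhibitor most widely used as a WNT/β-catenin readout, was not among them. It was at 54.5 and 52.1 CPM in wt and at 54.3, 40.2 and 38.5 CPM in Rspo2KO, so that Rspo2KO 1 lay within the wt range (log2 fold change −0.27, SE 0.15, adjusted p = 0.486). *Msx2*, a homeobox gene related to *Msx1*, was at 10.9 and 10.98 CPM in wt and at 9.38, 8.29 and 8.18 CPM in Rspo2KO, without overlap but with a log2 fold change of −0.35 (SE 0.15, adjusted p = 0.378). The log2 fold changes of *Lef1*, *Tcf7* and *Nkd1*, other common targets, were −0.06, 0.17 and 0.05, smaller than their SE, which were 0.23, 0.31 and 0.12. *Apcdd1*, a membrane inhibitor of WNT signalling and also a target, was at 32.6 and 44.7 CPM in wt and at 27.98, 24.7 and 25.6 CPM in Rspo2KO. The groups did not overlap and neither threshold was passed (log2 fold change −0.57, SE 0.15, adjusted p = 0.263), but with an offset for length and GC content the adjusted p was 0.0209.

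The parts of the R-spondin receptor system other than *Rspo2* did not pass either threshold. *Lgr4*, its most broadly used receptor, was at 92.9 and 102 CPM in wt and at 106, 107 and 111 CPM in Rspo2KO (log2 fold change 0.15, SE 0.11, adjusted p = 0.580). *Lgr5*, which is both a receptor and a WNT target, was at 6.46 and 6.59 CPM in wt and at 8.77, 7.46 and 8.81 CPM in Rspo2KO (log2 fold change 0.35, SE 0.17, adjusted p = 0.412). *Lgr6* had too few reads to be tested. The ligase genes *Znrf3* and *Rnf43* had log2 fold changes of −0.14 (SE 0.13) and −0.07 (SE 0.24), with overlapping groups. Of the other R-spondin genes, *Rspo3* was at 6.28 and 6.11 CPM in wt and at 7.49, 7.46 and 7.93 CPM in Rspo2KO (adjusted p = 0.468), and the groups overlapped for *Rspo1*.

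WNT ligand and receptor genes past the unadjusted threshold were *Wnt10b* and *Fzd6*. Of 17 genes for ligands and their release, 1 was lower (5.88%, beside 0.794% of all autosomal genes), *Wnt10b*, with wt at 1.06 and 0.712 CPM and Rspo2KO at 0.312 to 0.378 CPM. The log2 fold change was 0.28 (SE 0.17) for *Wnt9b*, the ectodermal ligand the study pairs with *Rspo2*, and −0.08 (SE 0.21) for *Wnt3*, and neither passed. Of 16 receptors and co-receptors, *Fzd6* alone passed (6.25% lower). In both lists 0 were higher, beside 4.47% of all genes. This Frizzled receptor was at 11.8 and 12.9 CPM in wt and at 7.56, 8.05 and 7.75 CPM in Rspo2KO (log2 fold change −0.67, SE 0.15, adjusted p = 0.263). *Lrp5* and *Lrp6* both had a log2 fold change of 0.47 (SE 0.18 and 0.15, adjusted p = 0.329 and 0.282), with every Rspo2KO library above wt and Rspo2KO 1 highest.

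Among 14 secreted WNT antagonists, *Dkk1* and *Notum* were lower (14.3%) and *Sfrp2* was higher (7.14%) at the unadjusted threshold. Among all autosomal genes 0.794% were lower and 4.47% higher. *Sfrp2*, which binds WNT proteins outside the cell, was at 17.2 and 20.5 CPM in wt and at 42.0, 28.0 and 32.2 CPM in Rspo2KO (log2 fold change 0.85, SE 0.18, adjusted p = 0.239). Of 29 intracellular components, 3 were higher (10.3%, beside 4.47% of all autosomal genes) and 0 lower (beside 0.794%). They were *Gsk3b*, the kinase that marks β-catenin for destruction, *Tcf7l1*, a TCF factor that mostly represses, and the β-catenin co-factor *Bcl9l*. In all 3 Rspo2KO 1 was the highest library, and without it 0 of the list were higher. β-catenin itself, *Ctnnb1*, had a log2 fold change of −0.05 (SE 0.14). Of 15 planar cell polarity genes, the 3 seven-pass cadherins *Celsr1*, *Celsr2* and *Celsr3* were higher (20%, beside 4.47% of all autosomal genes) and 0 lower. Their log2 fold changes were 0.61, 1.12 and 1.16. Again Rspo2KO 1 was highest, with *Celsr2* at 27.4 and 27.2 CPM in wt and at 86.7, 44.1 and 48.0 CPM in Rspo2KO, and without it 2 of the list were higher.

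Among genes that pattern the lower jaw, those past the unadjusted threshold were lower in Rspo2KO, as *Msx1* was. Of 18 genes of the endothelin, DLX and HAND programme, 3 were lower (16.7%, beside 0.794% of all autosomal genes) and 0 were higher (beside 4.47%). *Barx1*, a homeobox gene of proximal jaw mesenchyme and molar field, was at 44.6 and 54.2 CPM in wt and at 30.8, 30.7 and 33.4 CPM in Rspo2KO (log2 fold change −0.65, SE 0.13, adjusted p = 0.182). *Hand2*, which specifies the distal arch below endothelin signalling, was at 16.5 and 12.05 CPM in wt and at 9.38, 9.84 and 8.997 CPM in Rspo2KO (log2 fold change −0.59, SE 0.17, adjusted p = 0.268). *Hand1*, its partner at the arch tip, was at 3.36 and 2.20 CPM in wt and at 1.51, 1.91 and 0.9997 CPM in Rspo2KO (log2 fold change −0.88, SE 0.32, adjusted p = 0.312). The groups overlapped for the ligand *Edn1* (log2 fold change 0.33, SE 0.41), and the median log2 fold change of the list was −0.0298. Without wt 1 or without Rspo2KO 3, 1 member of this list was lower.

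*Pitx1*, a homeobox gene of the mandible and oral ectoderm, was at 34.7 and 30.5 CPM in wt and at 19.3, 19.98 and 17.7 CPM in Rspo2KO (log2 fold change −0.78, SE 0.13, adjusted p = 0.112). *Osr2*, which is needed for palate growth and limits the tooth row, was at 2.12 and 2.08 CPM in wt and at 1.06, 0.716 and 0.375 CPM in Rspo2KO (log2 fold change −1.57, SE 0.37, adjusted p = 0.263). These 2 were the lower ones among 17 oral, palatal and tooth field factors (11.8%, beside 0.794% of all autosomal genes). Of the 17, 0 were higher, beside 4.47% of all genes. Of 24 BMP ligands, antagonists and targets, *Msx1*, *Hand1* and *Hand2* were lower (12.5%) and 0 higher, beside the same shares of all genes. The median log2 fold change was −0.158, and 12 members were lower without overlap between the groups (16% of all genes were). Leaving out 1 library gave 1 to 6 lower members, with 1 without wt 1 or without Rspo2KO 3 and 6 without wt 2. For the ligand *Bmp4* wt was at 15.6 and 12.6 CPM and Rspo2KO at 11.8 to 12.9 CPM, with overlap. Of 12 FGF ligands and receptors *Fgf8* alone was lower (8.33%, beside 0.794% of all genes), and *Fgf10* had a log2 fold change of −0.24 (SE 0.16, adjusted p = 0.553).

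**Figure D3:**
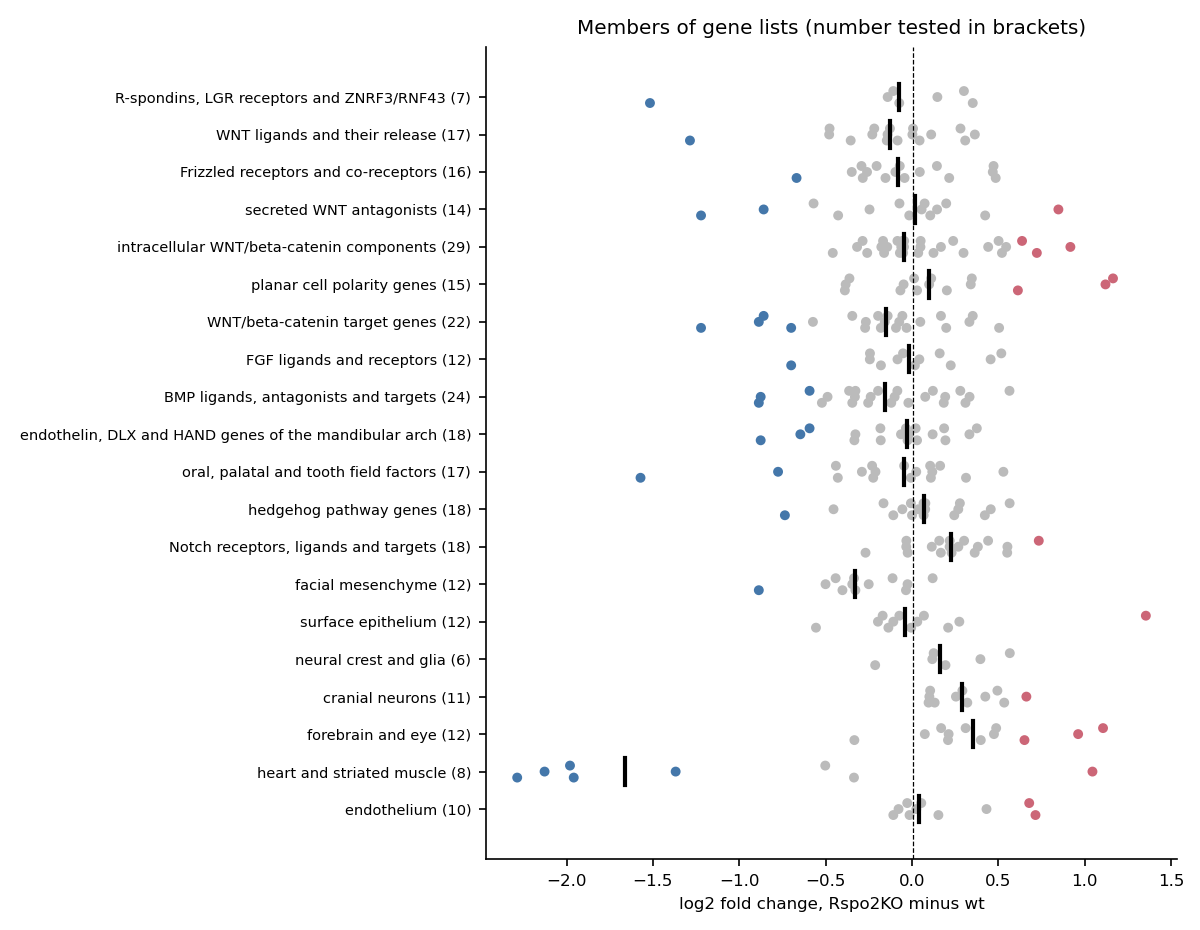
Log2 fold change (Rspo2KO minus wt) of each tested member of 20 gene lists, with members past the unadjusted threshold in red (higher) or blue (lower), the list median as a black bar and the median of all autosomal genes as a dashed line. The blue members of the WNT target, BMP and mandibular lists lie between −1.22 and −0.59, and the heart list stands apart at a median of −1.66.

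The remaining protein-coding genes with the smallest p among those lower in Rspo2KO were of several kinds. *Foxf1*, a forkhead factor downstream of hedgehog signalling, was at 23.7 and 24.3 CPM in wt and at 13.3, 14.9 and 15.1 CPM in Rspo2KO (log2 fold change −0.74, SE 0.13, adjusted p = 0.131). It was the only lower gene among 18 hedgehog pathway genes (5.56%, beside 0.794% of all autosomal genes), of which 0 were higher (beside 4.47%). *Tfap2c*, an AP-2 factor of ectoderm and neural crest, was at 13.97 and 12.99 CPM in wt and at 7.56, 7.63 and 7.12 CPM in Rspo2KO (log2 fold change −0.85, SE 0.15, adjusted p = 0.119).

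The others encode secreted proteins. *Smoc2*, a matrix protein, was at 11.8 and 14.8 CPM in wt and at 7.64, 6.38 and 6.56 CPM in Rspo2KO (log2 fold change −0.97, SE 0.17, adjusted p = 0.118). *Cthrc1*, a collagen triple helix protein reported to act in non-canonical WNT signalling, was at 14.2 and 18.2 CPM in wt and at 9.0, 8.71 and 7.93 CPM in Rspo2KO (log2 fold change −0.93, SE 0.16, adjusted p = 0.118). The chemokine *Cxcl14* was at 12.6 and 19.9 CPM in wt and at 7.87, 8.83 and 6.25 CPM in Rspo2KO (log2 fold change −1.10, SE 0.21, adjusted p = 0.182). In all of these genes the groups were apart by more than the range within either group, apart from *Cxcl14*, where wt 1 lay nearer to Rspo2KO 2 than to wt 2.

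Among protein-coding genes higher in Rspo2KO, *Laptm4b*, a lysosomal membrane protein gene on the chromosome of *Rspo2*, had the smallest p. It was at 60.5 and 70.2 CPM in wt and at 104, 122.8 and 116 CPM in Rspo2KO (log2 fold change 0.80, SE 0.12, adjusted p = 0.0589). *Col1a1*, the main chain of type I collagen, was at 17.5 and 17.3 CPM in wt and at 37.7, 27.1 and 36.0 CPM in Rspo2KO (log2 fold change 0.95, SE 0.16, adjusted p = 0.118). The metalloprotease *Adamts6* was at 15.7 and 15.1 CPM in wt and at 23.5, 26.5 and 25.2 CPM in Rspo2KO, and the hyaluronan-degrading protein gene *Cemip* at 5.48 and 4.51 CPM in wt and at 8.39, 11.2 and 14.2 CPM in Rspo2KO. Rspo2KO 1 was the lowest of the Rspo2KO libraries in 3 of these 4 genes, and in *Col1a1* it lay close to Rspo2KO 3.

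In other genes Rspo2KO 1 was the highest library. *Dcc*, the netrin receptor of growing axons, was at 12.7 and 16.2 CPM in wt and at 47.3, 25.8 and 31.1 CPM in Rspo2KO (log2 fold change 1.25, SE 0.24, adjusted p = 0.176). *Onecut2*, a factor of neurons, was at 22.9 and 27.1 CPM in wt and at 60.4, 38.6 and 45.7 CPM in Rspo2KO, and *Epas1*, a hypoxia-inducible factor, at 4.51 and 5.28 CPM in wt and at 15.4, 9.01 and 10.3 CPM in Rspo2KO. *Adgrv1*, a very large adhesion receptor, was at 70.6 and 71.6 CPM in wt and at 165, 130 and 109 CPM in Rspo2KO. The acetylcholine receptor subunit *Chrna4* was at 3.10 and 4.15 CPM in wt and at 11.2, 7.28 and 8.87 CPM in Rspo2KO. In each of these 5 genes the other Rspo2KO libraries also lay above wt.

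The genes higher in Rspo2KO were longer than the genes tested. Their median exonic length was 5754 bases, beside 4189 for all autosomal genes tested and 2631.5 for the 122 lower ones. In the decile of genes with the longest exonic sequence, at least 9686 bases, 165 genes were higher (10.7%) and 1 lower, and the median log2 fold change was 0.155. Together these longest genes took 126900 and 127400 CPM in wt and 148000, 128900 and 138600 CPM in Rspo2KO. Without Rspo2KO 1, 43 of them were higher (2.81%) and their median log2 fold change was 0.0887. With an offset that removes the dependence on length and GC content within each library, 503 genes were higher and 142 lower at the unadjusted threshold. Under it the adjusted threshold was passed by 29 genes (15 higher, 14 lower), among them *Barx1*, *Pitx1*, *Cxcl14*, *Smoc2*, *Dkk1*, *Tfap2c*, *Foxf1* and *Cthrc1* on the lower side and *Col1a1*, *Sfrp2* and *Laptm4b* on the higher side.

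**Figure D4:**
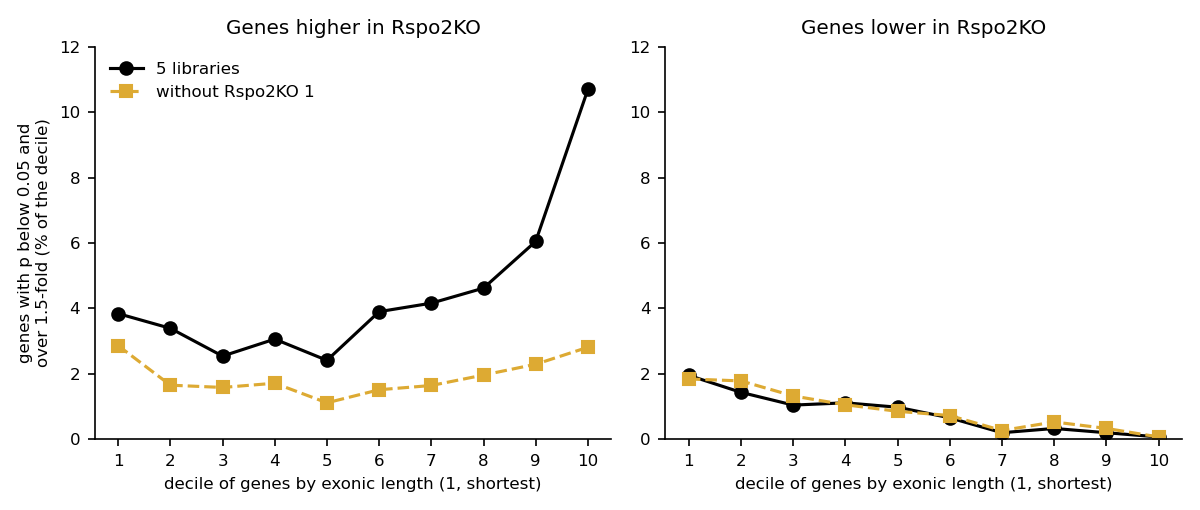
Share of genes past the unadjusted threshold (percent, vertical axis) in deciles of autosomal genes ordered by exonic length (horizontal axis), higher on the left and lower on the right, with all 5 libraries (black) and without Rspo2KO 1 (yellow). The share of higher genes in the longest decile was 10.7% with all libraries and 2.81% without Rspo2KO 1, and the share of lower genes was at most 1.95% in any decile.

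Markers of cell types were read for what the dissected tissue held. In bulk tissue, fewer cells of a type and less RNA per cell cannot be told apart. Of 12 facial mesenchyme markers, 11 had a log2 fold change below 0, and the list median was −0.331. Without overlap 6 were lower, beside 16% of all autosomal genes. *Msx1* alone passed a threshold (8.33% lower, beside 0.794% of all autosomal genes). The summed level of the 12 markers was 1196 and 1095 CPM in wt and 890.7, 822.5 and 902.6 CPM in Rspo2KO. The part of this in the lower jaw genes was not tested. The mesenchymal homeobox gene *Prrx1*, named after its values were seen, was at 374 and 338 CPM in wt and at 257, 229 and 269 CPM in Rspo2KO (log2 fold change −0.50, SE 0.12, adjusted p = 0.263). Surface epithelium markers had a median of −0.0383, and 1 of 12 (8.33%, beside 4.47% of all autosomal genes) was higher. It was the basal keratin *Krt15*, with wt at 1.42 and 3.09 CPM and Rspo2KO at 5.25 to 6.81 CPM.

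Neural markers lay on the higher side. All 11 cranial neuron markers had a log2 fold change above 0 (median 0.292), and their sum was 615.8 and 699.5 CPM in wt and 851, 745.7 and 826.2 CPM in Rspo2KO. The neurofilament gene *Nefm* was the 1 that passed (9.09%, beside 4.47% of all autosomal genes), with overlapping groups. Of 12 forebrain and eye markers 3 were higher (25%, beside 4.47% of all autosomal genes) and 0 lower, with a median of 0.355, and the summed level was 137 and 118.7 CPM in wt and 171.4, 153.2 and 142.6 CPM in Rspo2KO. Among them were *Nkx2-1* of the ventral forebrain and *Six3* of the anterior forebrain and eye. *Nkx2-1* was at 4.95 and 3.38 CPM in wt and at 13.4, 6.92 and 6.44 CPM in Rspo2KO, and *Six3* at 7.61 and 5.46 CPM in wt and at 13.99, 8.71 and 7.93 CPM in Rspo2KO. Of 18 Notch pathway genes 14 were above 0 with a median of 0.225, and *Notch1* alone passed, at 73.1 and 83.7 CPM in wt and at 171, 111 and 110 CPM in Rspo2KO. The part of neural tissue or of Rspo2KO 1 in the 687 higher genes was not tested. Without Rspo2KO 1, 2 forebrain and eye genes, 0 cranial neuron genes and 0 Notch genes were higher, and without wt 1 0 cranial neuron genes were.

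Heart and striated muscle genes set wt 1 apart from the other libraries. Their sum was 127.4 CPM in wt 1, 31.68 CPM in wt 2 and 31.36 to 36.15 CPM in Rspo2KO. Of 8 tested, 5 were lower at the unadjusted threshold (62.5%) and 1, the myogenic factor *Myog*, was higher (12.5%). Among all autosomal genes 0.794% were lower and 4.47% higher. *Actc1*, cardiac actin, was at 24.2 CPM in wt 1, 4.87 CPM in wt 2 and 4.37 to 6.56 CPM in Rspo2KO, and *Myl7*, an atrial myosin light chain, was at 9.55 CPM in wt 1, 1.90 CPM in wt 2 and 1.19 to 1.49 CPM in Rspo2KO. Without wt 1, 0 of the list were lower and its median moved from −1.66 to 0.16. Of 10 endothelial markers, 2 were higher, *Cdh5* and *Plvap*, and 0 without wt 1 or without Rspo2KO 1. The 2 endothelial genes were 20% of the list, beside 4.47% of all autosomal genes. Erythroid, macrophage and neural crest and glia markers had 0 genes past either threshold, with medians of 0.191, 0.0389 and 0.16.

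Genes near *Rspo2* on chromosome 15 were among the called ones in both directions. Within 10 Mb of the gene 61 others were tested, and 13 (21.3%) passed the unadjusted threshold, beside 5.26% of all autosomal genes. Of them 6 were higher (9.84%) and 7 lower (11.5%). The lower ones were *Rpl30*, *Osr2*, *Rgs22*, *Snx31*, *Fzd6*, *Cthrc1* and *Tmem74*, and the higher ones were *Laptm4b*, *Pabpc1*, *Rims2*, *Zfpm2*, *Pkhd1l1* and *Sybu*, all of which are named here because they make up the count. Over the whole of chromosome 15, 2.18% of 596 genes were lower and 4.53% higher. The ribosomal protein gene *Rpl30*, 8577 kb from *Rspo2*, was at 381 and 303 CPM in wt and at 146, 183 and 181 CPM in Rspo2KO and fell 2.01-fold (log2 fold change −1.01, SE 0.14, adjusted p = 0.0278). Without wt 1 its adjusted p was 0.251 and without Rspo2KO 3 it was 0.161. It was 0.182 with all 11 libraries in the fit, 0.0547 with a filter of at least 10 counts in every library, 0.1 with autosomal protein-coding genes only, and 1.0 against 1.5-fold (glmTreat). Ribosomal protein genes have near-identical pseudogenes, so the reads counted on it are uncertain.

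Leaving out any 1 library left 5 or 6 higher and 5 to 7 lower genes in this interval. *Pkhd1l1* was at 5.93 and 6.17 CPM in wt and at 11.2, 10.1 and 11.3 CPM in Rspo2KO, and *Rims2*, a synaptic protein gene, at 6.90 and 8.96 CPM in wt and at 18.9, 14.02 and 13.0 CPM in Rspo2KO. *Snx31* was at 1.95 and 1.42 CPM in wt and at 0.378, 0.656 and 0.625 CPM in Rspo2KO. The interval holds *Osr2*, *Fzd6* and *Cthrc1*, which are counted among the oral, WNT receptor and secreted genes above, and the part of their position in these differences was not tested. A mutant allele is inherited with the chromosome around it, so that in a mixed strain the mutation and the flanking chromosome cannot be told apart.

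**Figure D5:**
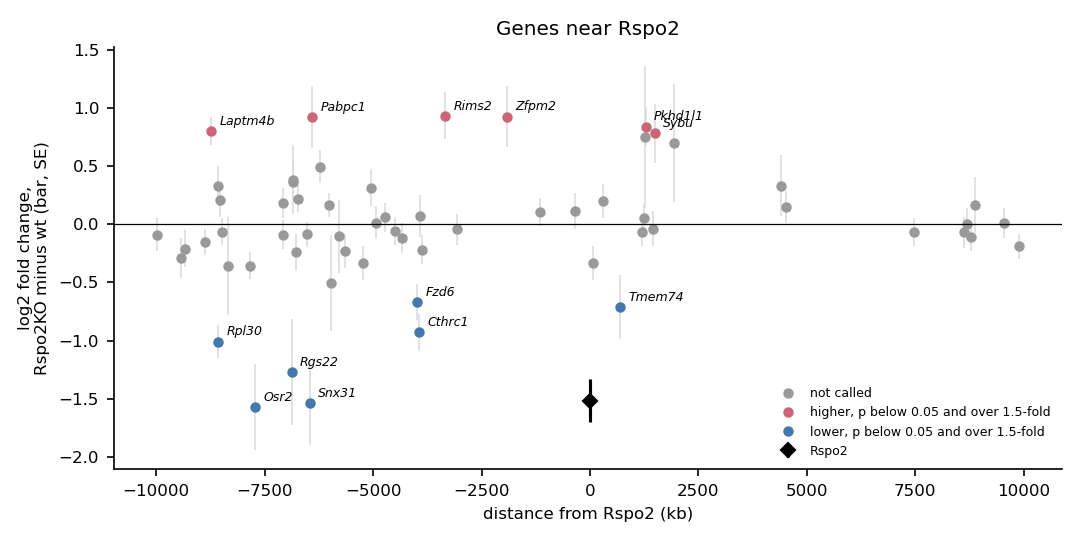
Log2 fold change (Rspo2KO minus wt, with SE) of the 61 tested genes near *Rspo2* against their distance from it in kb, with *Rspo2* as a black diamond at 0. The 6 higher (red) and 7 lower (blue) genes are interspersed, and 10 of these 13 lie at negative distances, as do 42 of the 61 tested.

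The 1 gene that rose past the adjusted threshold was *Eif3s6-ps2*, a processed pseudogene at chromosome 18, 90310868 to 90312190, whose name marks it as a copy of the translation factor gene *Eif3e*. It had 0 and 1 reads in the wt libraries and 157, 240 and 202 reads in Rspo2KO, that is 11.9, 14.3 and 12.6 CPM (adjusted p = 1.21e-06). The ratio of the groups was 367 with an exact 95% interval of 65.6 to 14514, which covers counting error only. *Eif3e* lies beside *Rspo2* on chromosome 15, and was at 366 and 309 CPM in wt and at 223, 292 and 287 CPM in Rspo2KO (log2 fold change −0.33, SE 0.14, adjusted p = 0.366). It is named after its values were seen, and short reads from gene and copy can be assigned to either.

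Lists of general cell functions are read beside the 4.47% of all autosomal genes that were higher and the 0.794% that were lower. Of 41 DNA replication and mitosis genes 2 were higher (4.88%) and 0 lower, with a median of −0.124. Of 28 apoptosis and p53 genes 2 were higher (7.14%) and 1 lower (3.57%), with a median of −0.106. The lower one was *Cdkn1a*, a cell cycle inhibitor, at 10.97 and 9.61 CPM in wt and at 6.43, 7.46 and 6.25 CPM in Rspo2KO. Lists for retinoic acid, glycolysis and hypoxia, cholesterol synthesis and replication-dependent histones had 0 members past the unadjusted threshold among 18, 26, 27 and 56 tested. Of 76 cytoplasmic ribosomal protein genes 2 were lower, *Rpl30* and *Rps29*, and 66 had a log2 fold change below 0 (median −0.137). Their sum was 28540 CPM in Rspo2KO 1 and 33820 to 36740 CPM in the other libraries. Of 147 small nucleolar and Cajal body RNAs 7 were lower and 0 higher, but without wt 2 9 were lower and 11 higher, and DESeq2 called 0. Of 29 small nuclear RNAs 1 was lower and 2 higher.

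At the unadjusted threshold 2 of 21 collagen genes (9.52%), 2 of 11 chondrogenic and osteogenic genes (18.2%) and 2 of 19 TGF-β genes (10.5%) were higher, beside 4.47% of all autosomal genes. So were 3 of 18 ephrins and EPH receptors (16.7%), 1 of 15 FGF/ERK response genes (6.67%) and 1 of 22 imprinted genes (4.55%), with 0 lower in each of these 6 lists. Without Rspo2KO 1, 0 of the ephrins and EPH receptors were higher. The skeletal factor *Sox9* was at 36.0 and 36.3 CPM in wt and at 74.5, 42.2 and 56.6 CPM in Rspo2KO. Among 15 ALX, PAX and TFAP2 factors 1 was higher, *Pax9* (6.67%), and 1 lower, *Tfap2c* (6.67%). *Hspa1b* of 24 immediate early and heat shock genes (4.17%) and *Cox4i2* of 93 respiratory chain genes (1.08%) were lower, with 0 higher. Among all autosomal genes 4.47% were higher and 0.794% lower, and the respiratory chain share is near the latter.

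The same mutation was also compared in embryos without *Wnt9b*, as DKO against Wnt9bKO, which shares no library with the comparison above. *Xist* and *Ddx3y* ran the opposite way there, with *Xist* at 1040 to 1469 CPM in DKO and at most 1.85 CPM in Wnt9bKO. *Ddx3y* was at 67.3 to 69.4 CPM in Wnt9bKO, at 0.0587 and 0.125 CPM in DKO 1 and 2, and at 4.43 CPM in DKO 3. The *Rspo2* level went against the label of 2 libraries. It was 2.86 CPM in the library labelled Wnt9bKO 2, beside 22.8 and 18.1 CPM in Wnt9bKO 1 and 3, and 15.5 CPM in the library labelled DKO 3, beside 4.17 and 3.68 CPM in DKO 1 and 2. *Wnt9b* reads, at 16.2 to 23.3 CPM in Wnt9bKO, do not check that label. Each value is therefore given with all 11 libraries and with the 9 others.

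Over the 9 libraries 0.0716% of autosomal genes passed the adjusted threshold in this comparison, and with all 11 it was 0.0846%. Without those 2 libraries, the log2 fold change of *Rspo2* in DKO against Wnt9bKO was −2.38, given with no test because the libraries were left out by this gene's level. *Msx1* fell by 0.98 on the log2 scale (adjusted p = 0.0455) and *Smoc2* fell by 1.2 (adjusted p = 0.0493). *Msx1* was at 136.1 and 90.62 CPM in Wnt9bKO 1 and 3 and at 52.09 and 63.4 CPM in DKO 1 and 2. In the libraries left out *Msx1* was at 35.11 CPM (Wnt9bKO 2) and 95.35 CPM (DKO 3), and *Smoc2* at 3.637 and 12.26 CPM. Both went with *Rspo2* there, so leaving out libraries by *Rspo2* level also favours genes that vary with it. The adjusted p-values over 9 libraries do not allow for that choice. With all 11 libraries the log2 fold changes of *Rspo2*, *Msx1* and *Smoc2* were −0.91, −0.31 and −0.38, none past the threshold (adjusted p = 0.959, 0.978 and 0.978). Over the 9 libraries *Msx2* was at −1.02 (adjusted p = 0.0745), *Barx1* at −1.0 (0.0691), *Dkk1* at −1.04 (0.114) and *Lgr5* at −0.97 (0.160). With all 11 these 4 genes were at −0.38 (adjusted p = 0.977), −0.49 (0.935), −0.50 (0.949) and −0.61 (0.770). Over the 9 libraries *Notum* was at −0.54, *Tfap2c* at −0.42, *Cthrc1* at −0.33 and *Rpl30* at −0.25, with adjusted p of 0.831 or more. With all 11 they were at 0.05, −0.05, −0.02 and 0.14, so that *Notum* and *Rpl30* turned sign. The difference between the backgrounds for *Msx1* was −0.07 on the log2 scale over 9 libraries (SE 0.22, adjusted p = 0.951) and 0.58 with all 11 (SE 0.49, adjusted p = 0.724).

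Of the 122 genes lower in Rspo2KO at the unadjusted threshold, 80 (65.6%) were also below 0 in DKO against Wnt9bKO over 9 libraries, beside 49.1% of all autosomal genes. With 11 libraries these were 71 (58.2%) and 50.1%. Over 9 libraries 16 of the 122 were lower there at the same threshold, which 1.41% of all genes were, and 2 were higher, which 1.63% of all genes were. The 16 include *Rspo2*, by whose level the libraries were left out, *Msx1*, *Smoc2*, *Foxf1*, *Barx1*, *Dkk1*, *Osr2*, *Hand1*, *Hand2* and *Wnt10b*, and with 11 libraries they were 3, beside 0.8% lower and 1.69% higher among all genes. Of the 687 higher genes, 313 (45.6%) were above 0 over 9 libraries, beside 50.9% of all genes, and 335 (48.8%) with 11, beside 49.9%. At the unadjusted threshold 37 of the 687 were higher there and 25 lower over 9 libraries, beside 1.63% and 1.41% of all genes. With 11 libraries 47 were higher and 9 lower, beside 1.69% and 0.8%. Some genes differed from wt also in Wnt9bKO 1 and 3, whose *Rspo2* level follows their label. *Sfrp2* was at 45.63 and 38.26 CPM there (wt 17.33 and 20.84), and *Gsk3b* at 292 and 295.3 CPM (wt 94.59 and 109.2). *Rpl30* was at 213.5 and 237.2 CPM (wt 385.2 and 308.6). *Laptm4b* went the other way, at 41.9 and 60.93 CPM (wt 61.1 and 71.52), and such genes were not counted. The Wnt9bKO libraries were also judged to stand apart from wt in small nuclear RNA, and the part of that in these levels was not tested. The 122 and 687 genes were chosen by the first comparison alone, but the 9 libraries were chosen by their *Rspo2* level. The shares given for these genes carry no test.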

How the data were processed

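RNA from facial process explants of E10.5 embryos was sequenced with single-end reads. After adapter trimming (Cutadapt) and alignment to GRCm38 (STAR), the authors tallied reads per gene with HTSeq-Count, and they deposited these raw counts as whole numbers for each library. The strand setting of the counting is not given in the sources used here. Groups and replicate numbers come from the labels, which do not say whether the libraries came from separate embryos or litters, so p-values measure only the spread between these libraries. Identifiers of 36723 genes matched the GENCODE M21 annotation of GRCm38, which gave names, positions and exonic lengths. The promoter sequences are from RefSeq.

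Genes were filtered with filterByExpr and tested with edgeR 4.0.16 (glmQLFTest, two-sided, TMM) in R 4.3.3 on the 5 libraries of the comparison. Adjusted p-values are Benjamini-Hochberg over all 16224 genes tested, sex chromosomes included, and CPM uses TMM-scaled totals. The other 6 libraries were left out of this fit because 2 of them go against their labels in *Rspo2*. Another reason was that all 6 were judged to stand apart from wt and Rspo2KO in small nuclear RNA, so their spread may differ. They enter a fit of all 11 libraries for DKO against Wnt9bKO and for the interaction. The study's methods name DESeq2, which is an alternative here (version 1.42.0). The SE is the absolute log2 fold change over the square root of F. Counts were also simulated at the depths of this comparison, each gene on its own with its fitted dispersion. Of 200 genes above 1 CPM changed 2-fold, 159 were recovered (79.5%) with 9 false calls, among 15994 genes tested. No simulated library stood apart as Rspo2KO 1 did, so this share need not hold for real genes. In the real fit *Chrna4*, at 2.46-fold (adjusted p = 0.125), and *Dcc*, at 2.38-fold (adjusted p = 0.176), were not called.

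The comparison, the gene lists and the rules below were chosen with earlier results of these data known. Genes named are *Rspo2*, *Wnt9b* and those the study names in the face, the 10 protein-coding genes higher and the 10 lower in Rspo2KO past the adjusted threshold, filled up by smallest p from those past the unadjusted one (mean of at least 1 CPM, no overlap), 3 of other biotypes in each direction, up to 4 per list by p, and genes with an adjusted interaction p below 0.05. Of the genes this rule picks, 1 is not reported here. Others named were chosen after their values were seen. They are *Lef1*, *Tcf7*, *Nkd1*, *Apcdd1*, *Rspo1*, *Rspo3*, *Prrx1*, *Eif3e*, *Myog*, *Snhg11* and the genes near *Rspo2*. Lists were written by hand from textbook knowledge, or by a rule on symbol, biotype or position. They are described by counts and medians, with no test. Alternatives were DESeq2, RLE and upper-quartile factors, other count filters, 11 or 9 libraries in the fit, a replicate block, an offset for GC content and gene length by loess (span 0.3), glmTreat, protein-coding autosomal genes only, and each library left out in turn. Figures used matplotlib 3.10.9 in Python 3.11.15.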

Additional observations from a re-analysis of the deposited data

Results flagged for a closer look

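The difference between the Rspo2 effect in the Wnt9bKO background and that in wild type was tested for each gene as (DKO minus Wnt9bKO) minus (Rspo2KO minus wt), and 2 autosomal genes passed an adjusted p of 0.05 with all 11 libraries. For the pseudogene *Eif3s6-ps2* the difference was −7.65 on the log2 scale (adjusted p = 0.000794). It had 1 read in all in wt, 11.8 to 14.6 CPM in Rspo2KO, 4.79 to 10.9 CPM in Wnt9bKO and 6.98 to 13.8 CPM in DKO. For *Cdk5rap1*, a gene of mitochondrial tRNA modification, it was −1.53 (adjusted p = 0.0452). *Cdk5rap1* was at 7.59 and 9.12 CPM in wt, 14, 15.4 and 11.1 CPM in Rspo2KO, 11.6 to 17.1 CPM in Wnt9bKO and 7.72 to 8.26 CPM in DKO. Without the libraries labelled Wnt9bKO 2 and DKO 3, whose *Rspo2* levels go against their labels, the values were −7.00 and −1.67 (adjusted p = 3.41e-05 and 0.0281), and *Snhg11* also passed, at −1.59 (adjusted p = 0.0209). Wt and DKO are the groups with high *Xist*, so genotype and sex cannot be told apart in the differences of *Cdk5rap1* and *Snhg11*. For *Eif3s6-ps2* wt and DKO lay apart although both had high *Xist*, and DKO lay among the levels of the groups with low *Xist*. What sets wt apart in this gene was not tested.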

How the results depend on the processing

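Genes past the adjusted threshold numbered 4 on these 5 libraries, and 70 with DESeq2, 476 without a count filter, 2 with at least 10 counts in every library, 1 with 11 libraries in the fit, 29 with the GC content and length offset, 1 with glmTreat and 2 among autosomal protein-coding genes. At the unadjusted threshold DESeq2 gave 510 genes (452 higher, 58 lower), glmTreat 234 (194 and 40), and fitting without a filter 213 lower genes. The cause of these differences was not tested, except that glmTreat tests against 1.5-fold and so calls fewer. Leaving out 1 library at a time gave 1 to 44 genes at the adjusted threshold and 427 to 1195 at the unadjusted one, with 294 to 966 higher and 86 to 229 lower. The lowest unadjusted count came without Rspo2KO 1 and the highest without wt 2, where wt 1 alone stood for wt and was assumed to vary like Rspo2KO. With all 11 libraries in the fit the adjusted p was 0.358 for *Rspo2*, 0.338 for *Msx1* and 0.182 for *Rpl30*, with log2 fold changes of −1.53, −0.90 and −1.02. Log2 fold changes turned sign when 1 library was left out, over −0.19 to 0.90 in *Edn1* (negative without wt 2), −0.11 to 0.0062 in *Ctnnb1* (positive without Rspo2KO 1), −0.19 to 0.085 in *Wnt3* and −0.21 to 0.13 in *Rnf43* (both positive without Rspo2KO 3), and −3.09 to 0.31 in *Myh7* and −2.14 to 0.17 in *Actc1* (both positive without wt 1). A replicate block (Rspo2KO 1 with wt 1, Rspo2KO 2 with wt 2) gave 79 genes at the adjusted threshold, and 330 with the GC content and length offset. *Wnt3* was at 0.084 under both block fits, and *Rnf43* at 0.13 and 0.0812. Nothing in the labels or methods says that the numbers pair the libraries. Deviations of same-numbered libraries from their group means correlated at 0.00213 and 0.0189 over genes. The deviations of 2 wt libraries mirror each other, so these values cannot tell whether the libraries are paired. The remaining counts over all autosomal genes kept within 1.5 times their value and the other 88 named genes their direction in every alternative. This does not cover the counts and medians of the gene lists, of which 273 values moved over the alternatives and 1816 did not. At a depth of 11136166 to 17455921 counts and with 2 wt libraries, 79.5% of 2-fold changes simulated above 1 CPM were recovered. That share need not hold for real genes.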
